A study of Homo sapiens with 12 samples.

Results

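The 10 epithelial lineage transcription factors TP63, GRHL1, GRHL2, GRHL3, OVOL1, ZNF750, SOX2, PAX9, TFAP2A and TFAP2C were taken by gene name from the count table of TIGK cells, 10 of its 58735 genes. TIGK is 1 line of human gingival keratinocytes transfected with hTERT, the catalytic subunit of telomerase, which lets the cells divide without limit. All 12 RNA libraries, controls included, came from cells at 48 mM glucose in a base medium made without L-Arginine (Arg). The untreated control cells received no added Arg and the treated cells received 500 μM, each for 24 or 48 h, with 3 libraries (A, B and C) in each of the 4 groups. The cells were seeded in wells of 6-well plates, and the study names the libraries of a group as replicates without saying whether they came from separate wells or from separate cultures, so the p-values below measure the spread between these libraries, which may be technical.

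These factors set the identity of stratified epithelia. p63, the product of TP63, is the factor that basal keratinocytes need to stay proliferative and committed to a stratified fate. The grainyhead-like factors GRHL1, GRHL2 and GRHL3 switch on junction and barrier genes, and OVOL1 and ZNF750 are zinc finger proteins of keratinocytes that leave the basal layer. The AP-2 factors TFAP2A and TFAP2C act early in surface ectoderm, whereas SOX2 and PAX9 are found in the lining of the mouth and esophagus.

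The libraries held between 16542243 and 19040964 counts. The 12 keratinocyte markers were all detected and summed to between 45257 and 58152 CPM (counts relative to library size, scaled here by the TMM method) in a library. The marker sums of fibroblasts (30.3 to 102 CPM), melanocytes (16.2 to 30.7 CPM, with TYR at 0 counts), immune cells (1.04 to 3.88 CPM) and endothelial cells (0.758 to 6.40 CPM) were far lower. Control library B at 48 h stood apart. It gave 1.55% of its counts to mitochondrially encoded genes, against 0.906% and 0.707% in libraries A and C, and it was the highest library of its group for 8 of the 10 factors, all but TFAP2A and TFAP2C. Over the 13189 genes with a mean of at least 1 CPM, it was the highest of its group for 38.1%. Control library B at 24 h was also the highest of its group for 8 of the 10 factors, against 36.6% of those genes. The main results of the 2-group comparisons with the 48 h control are therefore also given without library B, which was singled out after the data were seen. For the interaction, this is given for ZNF750 only.

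All 10 factors were detected in all 12 libraries. Levels of different genes are compared only per length, as FPKM, which were computed from the TMM-scaled counts and the deposited gene lengths. The FPKM levels spanned from GRHL2 (mean of the 12 libraries 20.2, range 14.7 to 25.5) and TP63 (20.2, 13.7 to 26.3) down to ZNF750 (1.20, 0.141 to 3.55). TFAP2C (12.5 FPKM), PAX9 (8.97 FPKM) and TFAP2A (8.48 FPKM) followed the leading pair, and GRHL3 (4.24 FPKM), OVOL1 (3.03 FPKM), SOX2 (2.33 FPKM) and GRHL1 (2.14 FPKM) made up the lower group. Of the neighbors in this order, only TFAP2A and GRHL3 had ranges that did not overlap, at no less than 7.80 FPKM and no more than 7.09 FPKM. GRHL2 exceeded TP63 in 7 of the 12 libraries, so their order was within the spread. Among the 13189 genes, 82.7% had a lower mean FPKM than GRHL2 and 20.3% a lower one than ZNF750.

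**Figure D1:**
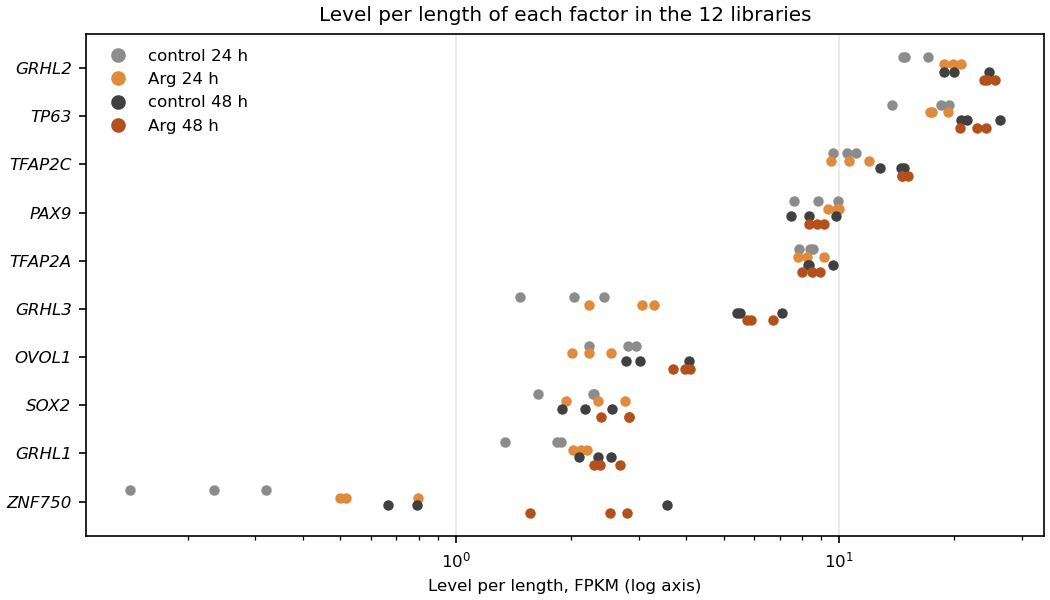
Level per length (FPKM, log axis) of each factor, with 1 point for each of the 12 libraries, colored by group and ordered by the mean. GRHL2 and TP63 lie highest at means of 20.2 FPKM, and ZNF750 spreads the most, from 0.141 to 3.55 FPKM.

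The relatives of these factors were measured as well. TP73, the nearest relative of TP63, had a mean of 2.25 FPKM. OVOL2, a repressor of mesenchymal genes, had 6.72 FPKM, above OVOL1, and OVOL3 had 35 counts over the 12 libraries. Of the other AP-2 genes, TFAP2E had 0.256 FPKM, TFAP2B had 1 count in all and TFAP2D had 0 counts. The spread over the 12 libraries also set the factors apart. The coefficient of variation of the CPM was 6.39% for TFAP2A and 9.85% for PAX9, lay between 16.3% and 24.7% for 6 factors, and reached 47.3% for GRHL3 and 95.3% for ZNF750.

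Promoter windows, the 250 bases upstream of an annotated RefSeq start (GRCh38.p14), were on hand for 6 of the 10 factors, and none was listed for GRHL2, OVOL1, ZNF750 and TFAP2C. GRHL3, and with the 48 h control library B also TP63 and GRHL1, were called with time in the control, so their windows are shown. Each was searched on both strands for the Grainyhead motif AACCNGTT, the AP-2 motif GCCNNNGGC and the AP-1 motif TGANTCA. The E-box CACCTG of the ZEB and SNAI repressors (chosen after the sequences were seen) was searched for as well. The last motif was the 10-base half-site of the p53 family, to which p63 belongs, and a half-site is only part of a full site. The TP63 window (chr3:189631139-189631388, plus strand) lies before the outermost start of the gene, not before its internal start, and the GRHL1 window (chr2:9951443-9951692, plus strand) ends at the start given in the count table. The GRHL3 window (chr1:24322790-24323039, plus strand) belongs to the second of its RefSeq starts and lies inside the gene as the count table bounds it. Capitals mark motif matches.
TP63: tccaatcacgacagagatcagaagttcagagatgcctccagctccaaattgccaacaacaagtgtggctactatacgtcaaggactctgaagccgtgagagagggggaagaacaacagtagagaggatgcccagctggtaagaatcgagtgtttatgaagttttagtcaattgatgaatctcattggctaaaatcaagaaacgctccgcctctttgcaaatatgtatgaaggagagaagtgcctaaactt
GRHL1: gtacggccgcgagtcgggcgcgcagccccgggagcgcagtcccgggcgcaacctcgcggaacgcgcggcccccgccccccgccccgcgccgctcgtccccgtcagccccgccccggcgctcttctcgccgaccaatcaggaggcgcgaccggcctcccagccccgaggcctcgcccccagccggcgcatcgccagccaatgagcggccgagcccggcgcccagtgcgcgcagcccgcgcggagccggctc
GRHL3: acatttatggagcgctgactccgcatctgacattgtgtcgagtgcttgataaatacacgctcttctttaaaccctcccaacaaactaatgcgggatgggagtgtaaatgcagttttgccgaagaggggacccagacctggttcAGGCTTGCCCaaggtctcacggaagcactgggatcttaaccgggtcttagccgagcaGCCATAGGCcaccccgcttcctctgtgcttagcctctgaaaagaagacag

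The GRHL3 window held an AP-2 match, GCCATAGGC, that begins 50 bases before the start. It also held a single p53 family half-site, AGGCTTGCCC, that begins 107 bases before the start. Of 35116 promoter windows of the same length, 19.8% held an AP-2 match and 5.57% a p53 family half-site. The TP63 and GRHL1 windows held no match to any of the 5 motifs. In the window of the other GRHL3 start, the only match was an E-box, 21 bases before that start, and 17.5% of all windows held one. Matches also lay in windows of SOX2 and PAX9, which passed in no comparison with all libraries. The SOX2 window held an AP-2 match, GCCGGCGGC. A PAX9 window held a p53 family half-site, GAGCTAGCCT, and an E-box. AP-2 matches and p53 family half-sites were thus not limited to windows of factors called with time. The TFAP2A windows held no match. No window of the 6 factors held the Grainyhead motif (1.49% of all windows) or the AP-1 motif (6.57%). These are matches of letters, and binding was not measured.

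The time in culture was compared within each treatment, 48 h against 24 h. The 10 factors were chosen with earlier results of these data known, so their counts here and below are not independent of the data. In the untreated control, 6 of the 10 factors were upregulated at 48 h and none was downregulated, at an adjusted p under 0.05 in edgeR's quasi-likelihood test, against 9.9% of 14449 tested genes upregulated and 10% downregulated. ZNF750 and GRHL3 changed most, by 7.22-fold and 3.05-fold, and GRHL1, GRHL2, TFAP2C and TP63 rose by between 1.34-fold and 1.39-fold. The same 6 factors were those whose 48 h libraries all lay above the 24 h libraries, and 18.8% of tested genes did so. The median log2 fold change was 0.43 over the 10 factors and 0.01 over all tested genes. With the 48 h control library B left out, these medians were 0.31 and 0.01. In bulk RNA, a change in the share of cells that express a gene and a change in the RNA per cell cannot be told apart.

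GRHL3, which is needed to form the skin barrier, is ENSG00000158055 and lies at chr1:24319322-24364482 on the plus strand. Its CPM in libraries A, B and C was 5.80, 9.61 and 8.03 in the 24 h control and 21.7, 27.9 and 21.3 in the 48 h control. Every 48 h library was above every 24 h library, with B the highest at both times. The log2 fold change was 1.61 (SE 0.19, adjusted p = 0.000974 by edgeR), and without the 48 h library B it was 1.47 (adjusted p = 0.000274). GRHL3 overlaps STPG1 on the opposite strand. In GENCODE v44, where GRHL3 has 4266 exon bases against a deposited length of 3940, they share 0 exon bases. STPG1 stayed between 21.0 and 24.3 CPM over the 12 libraries.

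ZNF750, a factor that terminal differentiation of the epidermis depends on, is ENSG00000141579 and lies at chr17:82829435-82840578 on the minus strand. Its CPM in libraries A, B and C was 0.867, 1.19 and 0.524 in the 24 h control, from 16, 21 and 9 counts, and 2.47, 13.2 and 2.95 in the 48 h control, from 47, 256 and 55 counts. The groups did not overlap, and at 48 h library B was far above A and C. The log2 fold change was 2.85 (SE 0.62, adjusted p = 0.00995) and fell to 1.65 (SE 0.41, adjusted p = 0.0149) without library B, so more than 1 log2 unit of it came with that library. ZNF750 lies inside TBCD on the opposite strand, and in GENCODE v44 222 of its 3158 exon bases (7.03%) are also exon bases of TBCD. The strand setting of the counting is not stated, so reads of these shared bases cannot be assigned with certainty. The deposited length of ZNF750 was 3713 bases, so the model that was counted differed from that of GENCODE v44. TBCD lay between 76.2 and 95.8 CPM in the 12 libraries and at 80.3 CPM in the 48 h control library B.

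Smaller changes were measured for 4 other factors. TP63 CPM was 102, 144 and 138 in the 24 h control libraries A, B and C and 160, 196 and 155 at 48 h, a log2 fold change of 0.42 (SE 0.13, adjusted p = 0.0362). GRHL2, which keeps junction genes such as E-cadherin expressed, went from 90.0, 103 and 89.2 CPM to 121, 149 and 114 CPM, or 0.45 (SE 0.11, adjusted p = 0.0142). For both factors the 2 groups did not overlap, and library B at 48 h was the highest of all 6 libraries. TFAP2C went from 31.5, 33.3 and 29.0 CPM to 44.5, 43.6 and 38.4 CPM, or 0.44 (SE 0.10, adjusted p = 0.0118), and here library B did not stand out. GRHL1, an activator of the desmosomal gene DSG1, went from 14.6, 15.0 and 10.7 CPM to 18.7, 20.2 and 16.7 CPM, or 0.47 (SE 0.15, adjusted p = 0.0480), which just passed the threshold. OVOL1 (0.31, adjusted p = 0.245), SOX2 (0.10, adjusted p = 0.779), TFAP2A (0.09, adjusted p = 0.479) and PAX9 (-0.03, adjusted p = 0.872) did not pass.

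Single libraries bore on these calls. Without the 48 h control library B, 4 factors passed (GRHL2, GRHL3, ZNF750 and TFAP2C), against 7.81% of 14749 genes upregulated, and TP63 (adjusted p = 0.0819) and GRHL1 (adjusted p = 0.0988) did not. The same 4 passed without the 48 h library A, and 5 without C, where GRHL1 missed (adjusted p = 0.0509). Without the 24 h library A or C, only GRHL3 passed (adjusted p = 0.00839 and 0.0115). The other 5 then had adjusted p between 0.0576 and 0.151 without A and between 0.0598 and 0.187 without C, and the genes called over the whole table went from 2882 to 828 and 998.

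**Figure D2:**
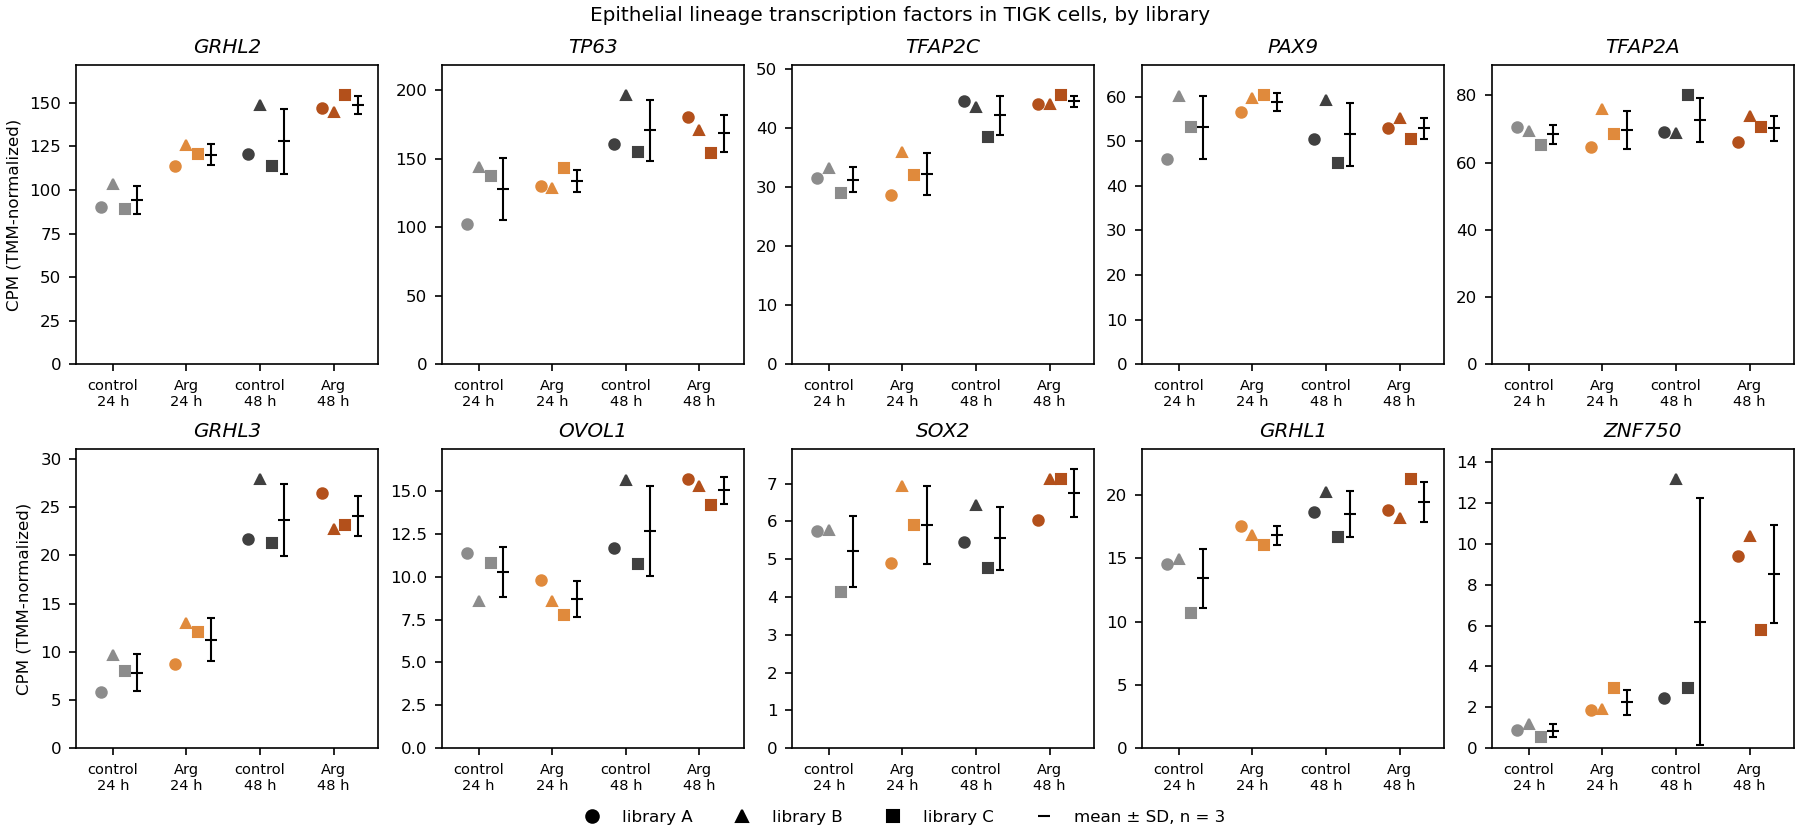
TMM-normalized CPM of each factor in every library, with symbols for libraries A, B and C and bars for the mean and SD of 3 libraries in each group. GRHL3 lies at 5.80 to 12.9 CPM at 24 h and at 21.3 to 27.9 CPM at 48 h, and control library B at 48 h stands out for ZNF750 at 13.2 CPM.

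With Arg, 6 of the 10 factors were also upregulated at 48 h, against 14.3% of 14398 tested genes, and none was downregulated, against 14% of them. ZNF750 rose by 3.80-fold, GRHL3 by 2.15-fold and OVOL1 by 1.74-fold. TFAP2C, TP63 and GRHL2 rose by between 1.24-fold and 1.39-fold. The median log2 fold change was 0.33 over the factors and 0.00 over all tested genes. These 6 calls held without any of the 6 libraries in turn and under each processing alternative. The share of counts from mitochondrially encoded genes also differed, at 0.624% to 0.802% at 24 h and 1.14% to 1.31% at 48 h with Arg. Its part in these changes was not tested.

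ZNF750 CPM in libraries A, B and C was 1.85, 1.92 and 2.95 at 24 h and 9.41, 10.4 and 5.79 at 48 h with Arg. All 48 h libraries were above the 24 h ones, with C the lowest at 48 h and the highest at 24 h, and the log2 fold change was 1.92 (SE 0.25, adjusted p = 1.43e-05). GRHL3 CPM went from 8.76, 12.9 and 12.1 to 26.5, 22.7 and 23.2, again with no overlap, a log2 fold change of 1.10 (SE 0.14, adjusted p = 8.34e-06). OVOL1, a repressor that restrains the growth of keratinocytes as they differentiate, went from 9.78, 8.57 and 7.74 CPM to 15.7, 15.3 and 14.2 CPM. Each 48 h library of OVOL1 was above each 24 h library, with a log2 fold change of 0.80 (SE 0.14, adjusted p = 0.000286). In the control, OVOL1 had been 11.4, 8.59 and 10.8 CPM at 24 h and 11.7, 15.7 and 10.7 CPM at 48 h, so those groups overlapped.

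TFAP2C went from 28.7, 35.9 and 32.0 CPM to 44.0, 44.0 and 45.5 CPM with Arg (log2 fold change 0.47, SE 0.09, adjusted p = 0.000870). TP63 went from 130, 129 and 143 CPM to 181, 171 and 154 CPM (0.34, SE 0.08, adjusted p = 0.00243), and GRHL2 from 114, 126 and 120 CPM to 147, 145 and 154 CPM (0.31, SE 0.07, adjusted p = 0.00221). None of these 3 pairs of groups overlapped. GRHL1 lay at 16.1 to 17.5 CPM at 24 h and 18.2 to 21.3 CPM at 48 h, also with no overlap, but did not pass (0.22, adjusted p = 0.170). PAX9, a paired-box factor of the oral epithelium, was the only factor whose 48 h libraries all lay below the 24 h ones, at 50.5 to 55.2 CPM against 56.5 to 60.3 CPM. It did not pass either (-0.15, adjusted p = 0.179). Groups that did not overlap were found for 20.8% of tested genes in the higher direction and 21.7% in the lower. SOX2 (0.20, adjusted p = 0.477) and TFAP2A (0.02, adjusted p = 0.907) overlapped between the times.

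Markers of other cell types moved with time as well. At 24 h, the summed CPM of 8 fibroblast markers was 34.5 to 54.5 in the control and 30.3 to 41.4 with Arg. At 48 h it was 85.3 to 102 and 72.5 to 99.9. DCN and COL1A1 made up most of the sum, at means of 44.2 and 18.1 CPM over the 12 libraries. COL1A2, COL3A1, PDGFRA and THY1 had only 2, 14, 12 and 13 counts over the 12 libraries, with COL1A2 at 0 counts in every 24 h library. The 4 endothelial markers summed to at most 3.01 CPM at 24 h and to between 4.07 and 6.40 CPM at 48 h, with CDH5 at 0 counts in both 48 h groups. Of the fibroblast markers, 2 of 4 tested rose in each treatment. Their part in the changes of the 10 factors was not tested.

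**Figure D3:**
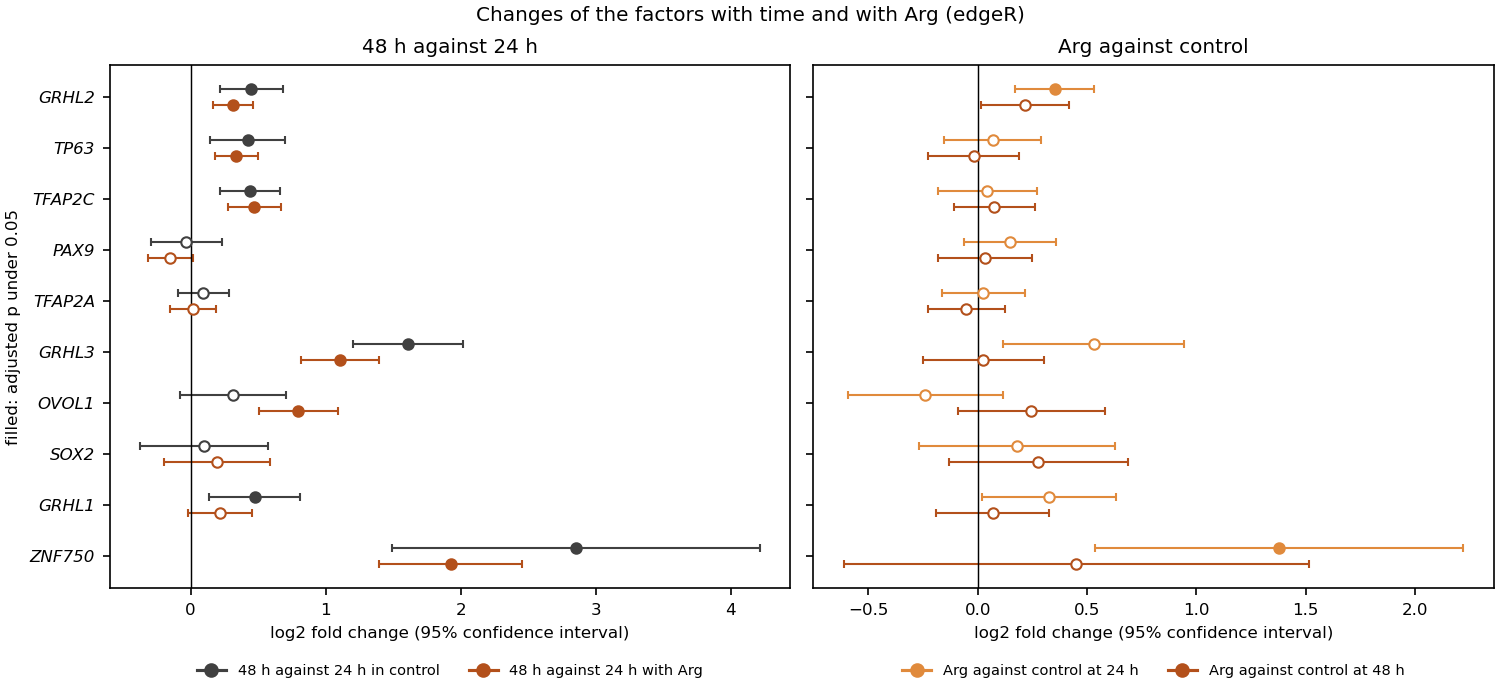
Log2 fold changes of the 10 factors with 95% confidence intervals, 48 h against 24 h on the left and Arg against control on the right, with filled points for an adjusted p under 0.05 by edgeR. On the left, 6 factors are filled in each treatment, and on the right GRHL2 (0.35) and ZNF750 (1.38) are filled at 24 h and no factor at 48 h.

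Arg-treated and untreated cells were compared at each time. At 24 h, 2 of the 10 factors were upregulated by Arg and none was downregulated, against 2.79% of 14279 tested genes upregulated and 3.84% downregulated. GRHL2 rose by 1.28-fold and ZNF750 by 2.60-fold. The median log2 fold change of the factors was 0.16, against 0.00 over all tested genes, and 9 of the 10 were above 0. This comparison and the control time course share the 3 control libraries at 24 h, so they are not independent.

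GRHL2 CPM at 24 h was 90.0, 103 and 89.2 in control libraries A, B and C and 114, 126 and 120 with Arg. Every Arg library was above every control library, and the log2 fold change was 0.35 (SE 0.09, adjusted p = 0.0205). ZNF750 CPM was 0.867, 1.19 and 0.524 in the control and 1.85, 1.92 and 2.95 with Arg, from 9 to 21 and from 33 to 55 counts. Its groups did not overlap either, and the log2 fold change of 1.38 (SE 0.40, 95% confidence interval 0.54 to 2.22, adjusted p = 0.0469) was close to the threshold. The call of ZNF750 was lost in several alternative fits, among them DESeq2 (adjusted p = 0.0532) and a model of all 12 libraries (adjusted p = 0.160). At 24 h, groups that did not overlap in the higher direction were found for 12.6% of tested genes.

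GRHL3 (log2 fold change 0.53, SE 0.20, adjusted p = 0.116) and GRHL1 (0.32, SE 0.15, adjusted p = 0.191) passed only before adjustment in the edgeR fit, as 10.8% of tested genes did in this direction. For GRHL1, the Arg libraries (16.1 to 17.5 CPM) lay above the control libraries (10.7 to 15.0 CPM), whereas for GRHL3 (8.76 to 12.9 against 5.80 to 9.61 CPM) they overlapped. OVOL1 was the only factor below 0 (-0.24, 95% confidence interval -0.60 to 0.12, adjusted p = 0.425). TP63 (0.07, interval -0.16 to 0.29), TFAP2C (0.04, -0.18 to 0.27), TFAP2A (0.03, -0.16 to 0.21), PAX9 (0.15, -0.06 to 0.36) and SOX2 (0.18, -0.27 to 0.63) had intervals that include 0.

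The 24 h calls also turned on single libraries. GRHL2 lost its call without control library A (adjusted p = 0.116) or C (0.115) and without Arg library B (0.108) or C (0.0906). ZNF750 kept its call only without control library B (0.0249), and its adjusted p was 0.144 and 0.185 without control libraries A and C and 0.0536, 0.107 and 0.226 without Arg libraries A, B and C. Without control library B, GRHL3 passed as well (log2 fold change 0.71, adjusted p = 0.0337). Mitochondrially encoded genes took 1.20% to 1.30% of the counts in the 24 h control libraries and 0.624% to 0.802% in the Arg libraries, and their part in these differences was not tested. Markers of other cell types also differed. The 7 melanocyte markers summed to 21.8 to 25.9 CPM in the control and 16.2 to 19.0 CPM with Arg, and 1 of the 2 tested fell, MITF (-0.49, adjusted p = 0.0280 by edgeR), while SOX10, TYR and TYRP1 were at 0 counts in both groups. Another melanocyte marker, PMEL, went the other way, with group means of 1.23 CPM in the control and 1.57 CPM with Arg. Of the fibroblast markers, whose sums are given above, 1 of the 4 tested fell, DCN (-0.70, adjusted p = 0.0294 by edgeR). The log2 fold change was above 0 for 2 of these 4. MITF, PMEL and DCN are named after their values were seen, and the part of these markers was not tested.

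At 48 h, none of the 10 factors passed in edgeR. Of 14562 tested genes, 0% were upregulated and 0.117% (17 genes) were downregulated. At an unadjusted p under 0.05, 1 factor passed, GRHL2 (adjusted p = 0.341), and 13.4% of tested genes did in either direction. DESeq2 called 0 of the factors. GRHL2 CPM was 121, 149 and 114 in the control and 147, 145 and 154 with Arg, and the control library B lay inside the Arg range. ZNF750 CPM was 2.47, 13.2 and 2.95 against 9.41, 10.4 and 5.79, so control libraries A and C were below all Arg libraries and B was above them. Its log2 fold change was 0.45 with a 95% confidence interval from -0.61 to 1.52.

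Without control library B, 3 factors passed at 48 h, against 7.76% of 14854 tested genes upregulated. ZNF750 then had a log2 fold change of 1.66 (SE 0.25, adjusted p = 7.17e-05), OVOL1 of 0.43 (SE 0.13, adjusted p = 0.0290) and GRHL2 of 0.35 (SE 0.06, adjusted p = 0.000453). OVOL1 had been at 11.7 and 10.7 CPM in control libraries A and C, against 14.2 to 15.7 CPM with Arg and 15.7 CPM in control library B. The other 7 factors did not pass, with adjusted p between 0.183 (SOX2) and 0.500 (TFAP2A). Over the table, 2365 genes were called without that library, and 17 with it. The median log2 fold change of the 10 factors was 0.16 without library B and 0.07 with it.

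**Figure D4:**
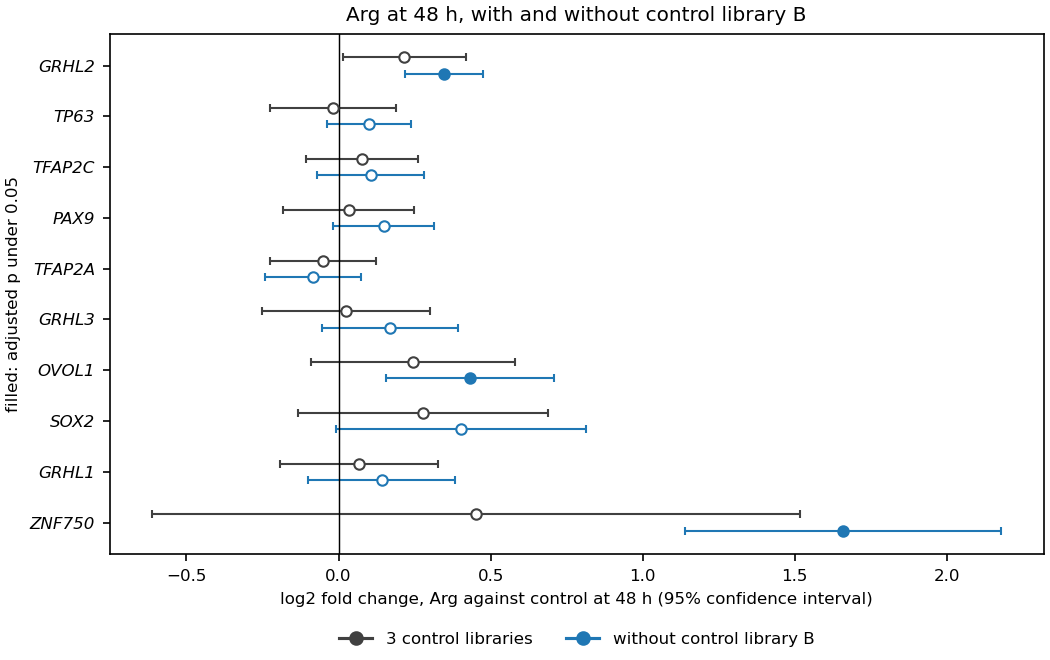
Log2 fold changes of Arg against control at 48 h with 95% confidence intervals, from 3 control libraries and again without control library B, with filled points for an adjusted p under 0.05 by edgeR. ZNF750 moves from 0.45 to 1.66, and GRHL2, OVOL1 and ZNF750 are filled only without library B.

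Whether the Arg difference itself changed from 24 to 48 h was tested as an interaction over the 12 libraries. None of the 10 factors passed in edgeR, and 0.0132% of 15148 tested genes did. DESeq2 also called 0 of the factors. At an unadjusted p under 0.05, 1 factor passed, OVOL1, at 0.48 (SE 0.23, adjusted p = 0.713), where 3.06% of tested genes did so in that direction. GRHL3 was at -0.50 (SE 0.24, adjusted p = 0.726), since its Arg difference was 0.53 at 24 h and 0.03 at 48 h. ZNF750 was at -0.93 (95% confidence interval -2.43 to 0.58, adjusted p = 0.862), and at 0.28 without the 48 h control library B. When each of the 12 libraries was left out in turn, OVOL1 ranged from 0.38 to 0.67, and none of the 10 factors passed.

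The genes around these factors were described by lists of known partners and targets, with the 10 factors themselves left out. These lists were chosen with earlier results of these data known, so their counts and medians are not independent of the data. The list counts from 24 to 48 h are read against 9.9% of all tested genes upregulated and 10% downregulated in the control. With Arg, these shares were 14.3% and 14%. Among the paralogues and lineage partners, 9 of 27 tested rose and 4 fell from 24 to 48 h in the control. The median log2 fold change of these partners was 0.18, against 0.01 over all genes. They were led by MAF (1.89), which promotes epidermal differentiation, DLX5 (1.21), TP73 (1.07) and, in the lower direction, SOX9 (-1.26). Without the 48 h control library B, MAF was at 1.06 (adjusted p = 0.0417 by edgeR). DLX5 was then at 1.00, TP73 at 0.96 and SOX9 at -1.18, and each passed. TP73 CPM was 8.44 to 14.5 at 24 h and 18.5 to 25.1 at 48 h, with no overlap. With Arg, 11 of 27 rose and 2 fell (median 0.21), again with MAF (2.24), TP73 (1.29) and DLX5 (1.17), and with CEBPA (0.78).

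In the basal programme of p63, 9 of 24 tested genes rose and 3 fell in the control (median 0.14), and 12 of 25 rose and 4 fell with Arg (median 0.25). KRT15, a keratin of basal cells, rose by 1.54 and 1.12 on the log2 scale. COL7A1, which anchors the basal layer, rose by 0.92 and 1.16. PKP1, a desmosome plaque protein, rose by 1.06 and 0.83. FGFR3 (0.86 in the control) and FRAS1 (1.15 with Arg) were the other leading genes. With the 48 h control library B left out, the control values were 1.15 for KRT15, 0.77 for COL7A1 and PKP1, and 0.69 for FGFR3. Each of these still passed in edgeR.

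Of the epithelial targets of the GRHL factors, 11 of 24 rose and 0 fell in the control (median 0.28), and 12 rose and 2 fell with Arg (median 0.26). DSG1, a desmosomal cadherin of upper cell layers, rose by 1.45 and 1.48, PROM2 by 0.99 and 1.18, and DSP, the main linker of desmosomes to keratins, by 0.75 and 0.89. TJP3 (1.46) and ARHGEF19 (0.71) also led in the control, RAB11FIP1 (0.76) and CLDN1 (0.74) with Arg. For DSG1, CPM was 3.84 to 4.75 at 24 h and 6.35 to 21.8 at 48 h in the control, and 6.57 to 7.36 and 13.5 to 26.3 with Arg. The highest control value came from library B, and without it the change of DSG1 in the control was 0.68 (adjusted p = 0.0402 by edgeR). PROM2 was then at 0.87, DSP at 0.60, TJP3 at 1.51 and ARHGEF19 at 0.74, and each passed.

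Of the genes of squamous differentiation, a list that also holds DSG1, 14 of 34 rose and 2 fell in the control (median 0.29), and 15 of 32 rose and 4 fell with Arg (median 0.41). Keratins of the suprabasal layers were among the genes that changed most in both, KRT4 (1.76 and 1.87), KRT13 (1.48 and 1.49) and KRT10 (1.53 and 1.82), with KRT1 (1.28) in the control and LYPD3 (1.50) with Arg. With Arg, TGM3 had the largest value (1.96, SE 0.62), from 3 counts in each 24 h library and 11 to 13 at 48 h. Without the 48 h control library B, the control values were 1.52 for KRT4, 0.94 for KRT13, 0.91 for KRT10 and 0.80 for KRT1, and all 4 passed. KRT13 lay at 573 to 1041 CPM at 24 h and at 1430 to 3434 CPM at 48 h in the control, with no overlap. Of the factors and genes of the epithelial to mesenchymal transition, 0 of 7 rose and 2 fell in the control, SNAI2 (-0.56) and TWIST2 (-0.79), with a median of -0.22. With Arg, 1 rose, TWIST1 (0.35), and 4 fell, FOXC2 (-0.67), TWIST2 (-0.55), SNAI2 (-0.42) and FN1 (-0.31), with a median of -0.31. Without the 48 h control library B, TWIST2 did not pass (-0.53, adjusted p = 0.0701 by edgeR), and the counts in the control were 9 higher and 3 lower for the partners, 7 and 2 for the basal programme, 11 and 0 for the GRHL targets, 12 and 1 for squamous differentiation and 0 and 1 for the mesenchymal list, against 7.81% of all genes higher and 8.6% lower. The medians were then 0.21 for the partners, 0.01 for the basal programme, 0.21 for the GRHL targets, 0.31 for squamous differentiation and -0.17 for the mesenchymal list, against 0.01 over all genes. The median of the basal programme, 0.14 with all libraries, was then at that of all genes.

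**Figure D5:**
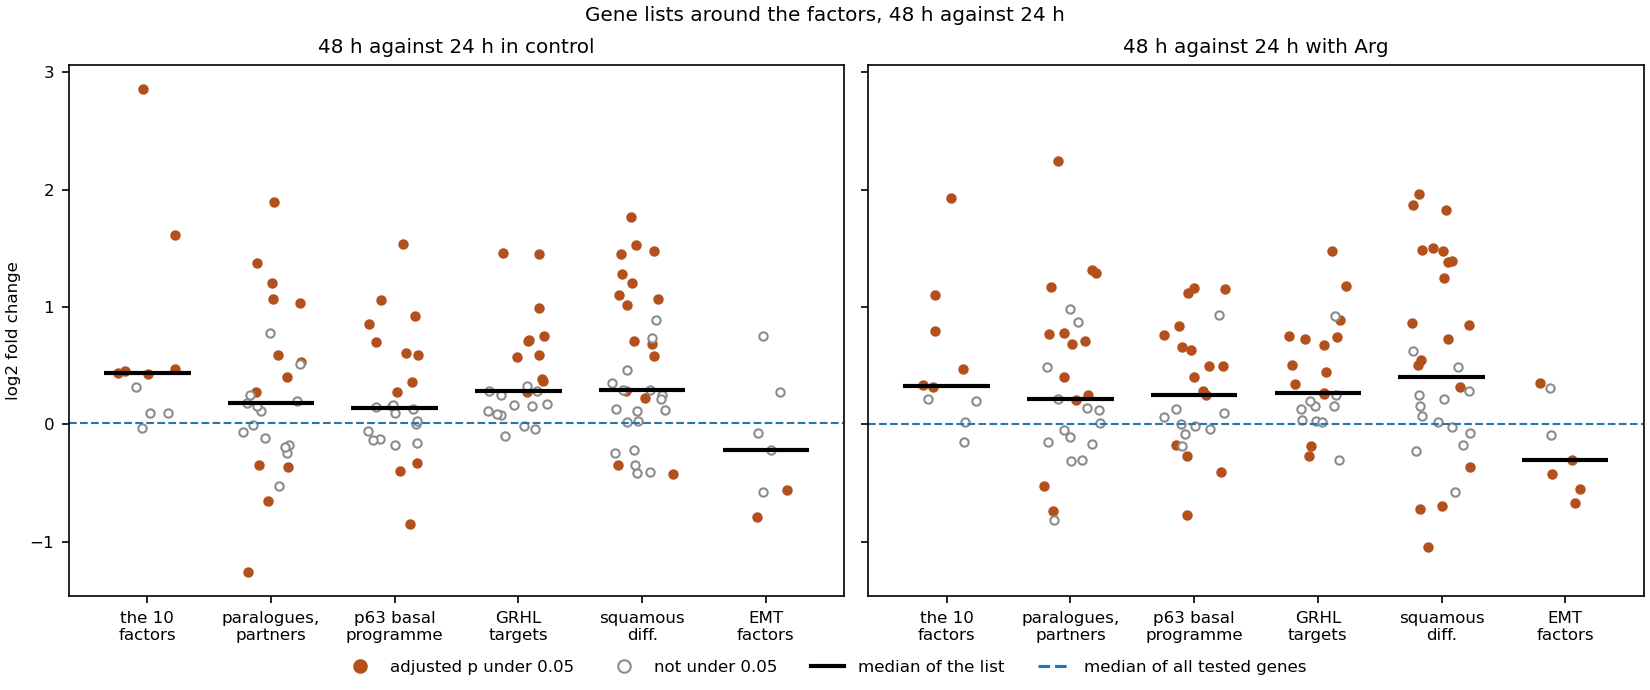
Log2 fold changes from 24 to 48 h of the 10 factors and of the genes in 5 lists around them, in the control and with Arg, with filled points for an adjusted p under 0.05, black bars for list medians and a dashed line for the median of all tested genes. In the control the median was 0.43 for the factors, 0.29 for squamous differentiation and -0.22 for the mesenchymal list. Without the 48 h control library B, which is included here, these medians were 0.31, 0.31 and -0.17.

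With Arg at 24 h, the counts of these lists are read against 2.79% of all tested genes upregulated and 3.84% downregulated. Of the partners, 0 of 26 rose and 4 fell, SOX7 (-0.73), SOX9 (-0.71), KLF4 (-0.45) and BNC1 (-0.33), with a median of -0.08. SOX9 CPM was 30.9 to 44.4 in the control and 21.5 to 24.9 with Arg, without overlap. In the basal programme, PKP1 (0.54) rose and ITGA6 (-0.40) fell among 24 tested, and among 24 GRHL targets ESRP2 (0.44), a splicing factor of epithelial cells, rose and CLDN1 (-0.52), a tight junction protein, fell. The medians of these lists were 0.00 and 0.13. Of 32 squamous genes, PPL (0.54) and EMP1 (0.25) rose and ABCA12 (-0.59), S100A9 (-0.53) and KLF4, also counted here, fell (median 0.14). Of 6 mesenchymal genes, FN1 (0.49) rose and FOXC2 (-0.88) and SNAI2 (-0.49) fell (median -0.52).

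SNAI2, a repressor of E-cadherin, was lowered both with Arg at 24 h and with time. Its CPM was 114 to 149 in the 24 h control, 90.3 to 96.1 with Arg at 24 h, 80.8 to 91.6 in the 48 h control and 64.8 to 71.1 with Arg at 48 h. At 48 h, Arg changed 0 genes of the 5 lists at an adjusted p under 0.05 in edgeR, and at an unadjusted p between 0 and 4 genes of a list passed in each direction. Without control library B, 3 partners rose and 3 fell, as did 10 and 3 genes of the basal programme, 8 and 1 of the GRHL targets, 8 and 3 of squamous differentiation and 1 and 3 of the mesenchymal list, of 27, 25, 24, 33 and 7 tested. Over all 14854 tested genes, 7.76% then rose and 8.17% fell. The medians were -0.01, 0.14, 0.14, 0.08 and -0.41 in the same order, against 0.01 over all genes.

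For each factor that passed in any comparison with all libraries, the genes with the most similar profile were found over the 12 libraries, by the root mean square difference of log2 CPM after each gene was centered on its own mean. These points are not independent, since 3 libraries share each group. GRHL2 was nearest to HP1BP3 (0.041 log2 units) and PIK3R1 (0.060), TP63 to RRAGC (0.051) and ITM2B (0.087), and TFAP2C to MYH10 (0.066) and SLC38A10 (0.071). HP1BP3 had group means of 90.9 and 116 CPM in the control and with Arg at 24 h and of 128 and 147 CPM at 48 h, close to those of GRHL2 (94.2, 120, 128 and 149 CPM). It was picked for this closeness, and shared regulation was not tested for any of these genes. GRHL3 was nearest to METTL7A (0.181) and IL17RE (0.193), OVOL1 to HIVEP1 (0.117) and BIN1 (0.122), and GRHL1 to TSC2 (0.090) and KAT8 (0.097). The nearest genes to ZNF750 were NOTCH3 (0.372), a Notch receptor, and MAB21L3 (0.396), set against an SD of 1.40 for ZNF750 itself. NOTCH3 had group means of 10.6, 14.6, 49.6 and 67.3 CPM in the same order.

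SOX2, PAX9 and TFAP2A passed in no comparison with all libraries. SOX2, a factor of progenitor cells in the mouth and esophagus, lay between 4.13 and 7.13 CPM (71 to 125 counts), PAX9 between 45.2 and 60.3 CPM and TFAP2A between 64.6 and 80.0 CPM over all 12 libraries. Their widest intervals over the 4 pairwise comparisons were those of SOX2, which ran from -0.37 to 0.57 for the control time course and from -0.27 to 0.63 for Arg at 24 h. PAX9 overlaps SLC25A21 (1000 counts in all) and an antisense gene (1318 counts) on the opposite strand, against 11766 counts of its own. In GENCODE v44, 1442 of the 5682 exon bases of PAX9 (25.4%) are shared with SLC25A21, whereas its deposited length was 6035 bases. Antisense genes also overlap TFAP2A (311 and 147 counts against 15266), and SOX2 lies within SOX2-OT (36 counts against 1273).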

How the data were processed

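Polyadenylated RNA of 12 TIGK libraries was sequenced. The authors filtered reads with fastp, used STAR to map them to GRCh38/hg38 and featureCounts to count them, and they deposited raw, unnormalized counts per gene with gene lengths. Tool versions, annotation release and strand setting are not given in the sources used here. Of the table's sample columns, 12 were used and 0 were not. Libraries were grouped by the treatment and time in the labels. The members and lists were chosen with earlier results of these data known.

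The 2-group comparisons and the interaction were fitted with edgeR 4.0.16 in R 4.3.3 (TMM, filterByExpr, quasi-likelihood test, no block), with Benjamini-Hochberg adjustment over all tested genes and 95% confidence intervals. With 3 libraries against 3, a two-sided exact permutation test cannot give a p below 0.1. CPM are TMM-scaled, and likeness used a prior count of 2 and genes with a mean of at least 1 CPM. All 10 factors are named in every comparison. From each list, the genes named are at most the 5 that changed most, up or down, with an adjusted p under 0.05, with paralogues by level and overlapping genes by position, and some genes that meet this rule are not reported here. For SNAI2, TP73, SOX9, DSG1 and KRT13, levels were picked for display after the values were seen. Exon overlaps came from GENCODE v44, whose models of these genes differ from those that were counted. Scripts were tested on simulated data.

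The alternatives were DESeq2 1.42.0, edgeR with DESeq2's size factors or scaled by library size alone, no filter, at least 10 counts in every library, a replicate block, all 12 libraries in a single model, an unadjusted p under 0.05, and leaving out each library in turn. Leaving out the 48 h control library B, for the lists and their genes, was chosen after the data were seen.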

Additional observations from a re-analysis of the deposited data

How the results depend on the processing

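For Arg against control at 24 h, the 2 factors called became 1 with DESeq2, 1 with at least 10 counts in every library (where ZNF750 was not tested), 1 with the replicate block, 1 in the model of 12 libraries and 4 at an unadjusted p under 0.05, and 0 to 3 when a library was left out. Libraries of the same letter did not deviate together (correlations of their deviations from -0.113 to 0.224, and in no comparison over 0.1 for all 3 letters), so the letters were not taken as pairs. With the replicate block, ZNF750 had an adjusted p of 0.0586. The replicate block changed no other call of a factor, with 0 called at 48 h and 6 in each time course, and moved the genes called at 48 h over the whole table from 17 to 184. Those 17 became 169 with DESeq2, 573 without a filter and 41 in the model of 12 libraries, and the 2 of the interaction became 21 with DESeq2 and 88 without a filter. At 48 h, 1 factor passed at an unadjusted p and 0 to 3 when a library was left out. In the control time course, 1 to 6 passed when a library was left out, and 5 with at least 10 counts in every library. In the Arg time course, 6 passed throughout. In the interaction, 1 passed at an unadjusted p. Over the whole table, the genes called when a library was left out ranged from 359 to 1529 for Arg at 24 h and from 6 to 2365 at 48 h. They ranged from 828 to 3304 in the control time course, 2938 to 3669 in the Arg time course and 0 to 46 in the interaction. The cause of these shifts was not tested.

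Signs changed for values that had not passed. Scaled by library size only, PAX9 in the control time course was 0.025. Scaling by library size moved the median of all genes by less than 0.1 in every comparison. When a library was left out, log2 fold changes of Arg at 24 h ranged from -0.071 to 0.16 for TP63, -0.042 to 0.073 for TFAP2A and -0.043 to 0.11 for TFAP2C. At 48 h they ranged from -0.086 to 0.10 for TP63, -0.0051 to 0.14 for GRHL1, -0.051 to 0.17 for GRHL3, -0.056 to 0.15 for PAX9 and -0.089 to 0.021 for TFAP2A. With time they ranged from -0.049 to 0.20 for SOX2 and -0.15 to 0.060 for PAX9 in the control, and from -0.037 to 0.082 for TFAP2A with Arg. In the interaction they ranged from -0.17 to 0.053 for TP63, -0.042 to 0.12 for TFAP2C, -0.019 to 0.24 for SOX2 and -1.31 to 0.28 for ZNF750. Depth limits ZNF750 most, with 9 to 21 counts in the 24 h control libraries.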
